A study of Rattus norvegicus with 4 samples.

Results

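Glycolysis, lactate handling and the gate that admits pyruvate to the mitochondrion were followed here as 32 genes in cultured rat Sertoli cells, the somatic nurse cells of the seminiferous tubule. The genes were taken by name in pathway order, from glucose transporters to the pyruvate dehydrogenase complex, with Gpd1 at a side branch. Each gene was read from the probe set that carries its symbol alone and has the highest mean over the 4 arrays. Of the 32 genes, 30 had such a probe set, out of 14218 genes on the array; Pkm and Dlat had none and were not analysed here. A filter on dim probe sets left 28 genes to test, and the monocarboxylate transporter genes Slc16a3 and Slc16a7 lay below it.

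The cells came from testes of Sprague-Dawley rats aged 20 days. One group was kept with cAMP for 72 h and the other for 72 h with no treatment, with 2 arrays each. Both groups were grown without serum in Ham's F-12 medium with 0.01% albumin at 32 °C and 5% CO2, as primary cultures. Neither the cAMP compound nor its dose is stated in the sources used here. The samples are called biological replicates with no word on separate preparations, and p-values below cover just the spread among them, which may be technical.

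Sertoli cells take up glucose, turn much of it into lactate and pass the lactate to germ cells, which depend on it as a fuel. Follicle-stimulating hormone acts on these cells through cAMP and is known to raise their glucose uptake and lactate output. Pyruvate can be reduced to lactate by lactate dehydrogenase or enter the mitochondrion and be oxidised by the pyruvate dehydrogenase complex, which the pyruvate dehydrogenase kinases switch off.

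All 4 arrays had the same trimmed mean signal of 125. Sertoli cell markers were bright in both groups, with Clu between 6071.5 and 7277.8 and Cldn11 between 4821.4 and 5781.8, while Rhox5 and Gdnf lay near background; of 10 tested Sertoli markers 3 rose (Inha, Dhh, Shbg) and 2 fell (Gata4, Aard). The 6 of 12 germ cell markers with a probe set summed to 3743.3 and 2775 on the cAMP arrays, against 4009.9 and 3630.6 on the control arrays, led by the meiotic gene Sycp3; none of the 5 tested passed. Among the 7 peritubular myoid markers the sums were 181.7 and 221.1 with cAMP, against 614 and 460.8 in controls. Tagln carried most of that difference, with 1.3 and 7.4 with cAMP and 344.5 and 264.3 in controls. Synpo2 also fell and Des rose, while Acta2 overlapped between groups, at 67.1 and 73.2 with cAMP and 109.6 and 60.6 in controls. The 4 endothelial markers with a probe set summed to 91.2 and 88.3 with cAMP, against 229.5 and 155.6 in controls; Kdr alone fell, with 57.5 and 58.1 with cAMP and 187.3 and 130.8 in controls, Tek overlapped (25.2 and 17.1 with cAMP, 24.9 and 17.4 in controls), and Pecam1 and Vwf were at background. The 7 Leydig cell markers summed to 122.1 and 122.2 with cAMP and 98.5 and 92.8 in controls, with Cyp17a1, Hsd3b1 and Lhcgr at background on all arrays. One of them, Hsd11b1, had 32 and 48.7 with cAMP and was at background in controls (3.5 and 2.7), at least 2.78-fold higher but below the filter and not tested. Hsd17b3, not tested either, lay the other way, with 16.4 and 9.7 with cAMP and 23.3 and 24.3 in controls. The 7 macrophage markers summed to 198.1 and 214.2 with cAMP and 185.5 and 259.3 in controls, with Ptprc, Cd163 and Adgre1 at background. Cd68, also below the filter, had 28.1 and 45.2 with cAMP and 4.1 and 6.2 in controls, at least 2.51-fold higher. Mrc1, the brightest of the macrophage markers, lay the other way, with 125.5 and 107.2 with cAMP and 133.4 and 208 in controls. It was tested and did not pass (-0.47 ± 0.23). The part of these cells in the results below was not tested, and in such bulk RNA fewer cells of a type cannot be told apart from less RNA per cell. The 3' to 5' ratio of actin, a sign of RNA integrity, was 1.86 and 1.65 with cAMP, against 1.80 and 2.25 on control replicates 1 and 2. The same ratio of Gapdh was not raised on control replicate 2. It was 0.930 and 0.937 with cAMP, against 0.966 and 0.903 on control replicates 1 and 2. Control replicate 2 lay below control replicate 1 in 23 of the 28 tested genes, against 50.02% of all tested probe sets, with a median log2 difference of -0.23 for the 28 genes and -0.000788 for all. The cAMP arrays split evenly, with 14 of 28 genes lower on replicate 2.

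With cAMP, 6 of the 28 genes rose, 2 fell and 20 did not pass the threshold of 0.05 on the adjusted p. The genes that rose were Tpi1, Gpd1, Pgk1, Pfkfb3, Pgam1 and Ldha, by between 0.53 and 1.38 on the log2 scale. Those that fell were the kinase genes Pdk4 and Pdk1. Over all 18629 probe sets tested, 7.29% were higher and 6.39% lower, 13.7% in all, against 21.4% and 7.14% of these genes. The share that fell was thus near that of all probe sets. These shares set genes, each read at its brightest probe set, beside all probe sets past the filter. With the filter at the 60th percentile, 1151 of 12420 probe sets were higher and 1053 lower, against 6 and 2 of 22 genes. The cAMP and control arrays did not overlap in 19 of the 28 genes, or 67.9%, against 58.2% of all tested probe sets. The median log2 difference was 0.04 over the 28 genes and -0.04 over all probe sets. It was 0.17 without control replicate 1 and turned to -0.11 without control replicate 2.

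**Figure D1:**
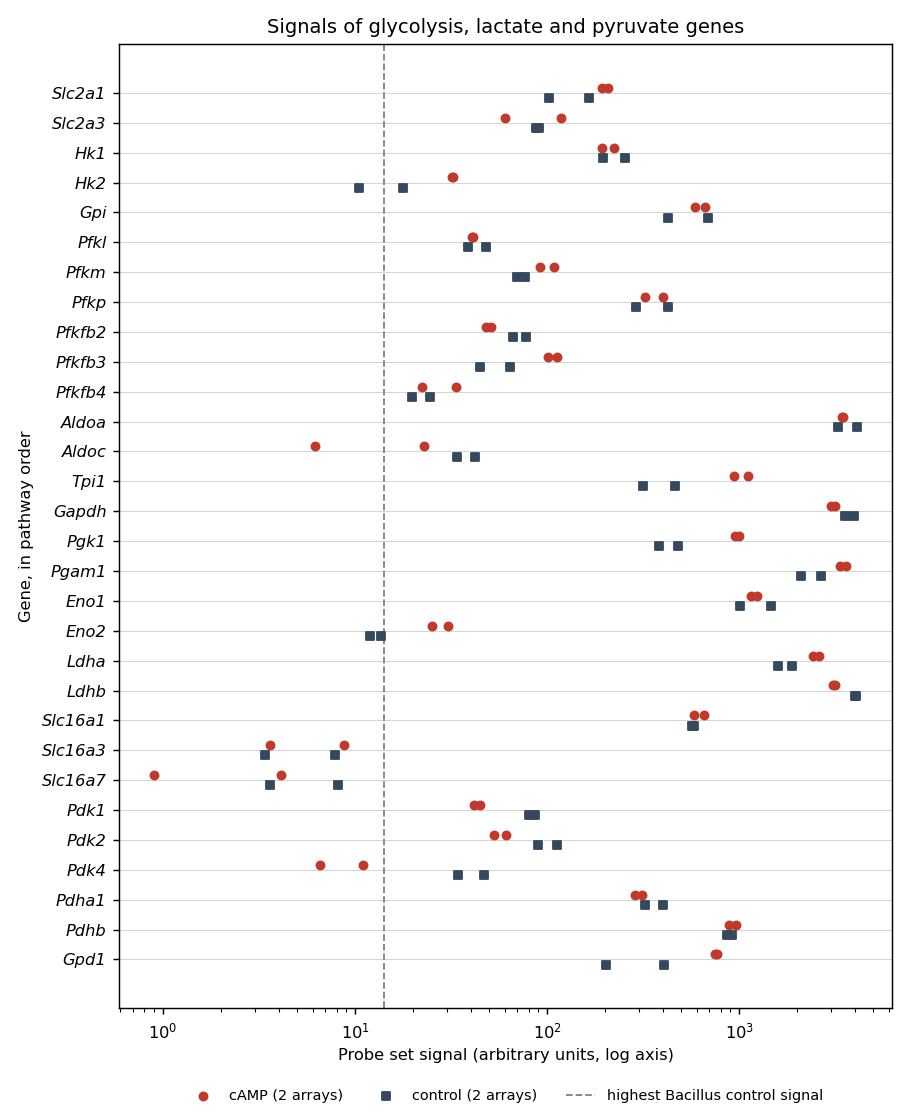
Signal of each gene on the 2 cAMP arrays (circles) and the 2 control arrays (squares), on a log axis, in pathway order; the dashed line is the background signal of 14.2, the brightest Bacillus control. The cAMP arrays lie right of both control arrays for Slc2a1, Hk2, Pfkm, Pfkfb3, Tpi1, Pgk1, Pgam1, Eno2, Ldha, Slc16a1 and Gpd1. They lie left of both for Pfkfb2, Aldoc, Gapdh, Ldhb, Pdk1, Pdk2, Pdk4 and Pdha1.

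Promoter sequences from RefSeq (build GRCr8) are printed for the genes that passed the test and had an entry, leaving out Pdk4, in which none of the motifs below was found. They are shown so that sites of the kind bound by cAMP-responsive and hypoxia-responsive factors can be seen beside the responses. Each is the 250 bases before the annotated start site, 5′ to 3′ on the gene's strand. Capitals mark any of 5 motifs: the cAMP response element (CRE) TGACGTCA, its half-site TGACG, the hypoxia-inducible factor (HIF) cores ACGTG and GCGTG, and the E-box CACGTG.
Ldha, chr1:106507842-106508091, plus strand: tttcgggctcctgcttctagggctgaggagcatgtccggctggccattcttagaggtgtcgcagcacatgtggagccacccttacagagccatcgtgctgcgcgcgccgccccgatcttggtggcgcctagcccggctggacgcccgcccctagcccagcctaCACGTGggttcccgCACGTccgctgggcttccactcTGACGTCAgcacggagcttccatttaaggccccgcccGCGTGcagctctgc
Pfkfb3, chr17:71944683-71944932, plus strand: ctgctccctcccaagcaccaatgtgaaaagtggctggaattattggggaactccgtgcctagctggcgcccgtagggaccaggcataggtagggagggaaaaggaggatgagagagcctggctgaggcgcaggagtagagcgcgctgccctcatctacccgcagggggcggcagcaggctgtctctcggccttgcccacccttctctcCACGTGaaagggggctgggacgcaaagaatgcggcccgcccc
Tpi1, chr4:159305089-159305338, minus strand: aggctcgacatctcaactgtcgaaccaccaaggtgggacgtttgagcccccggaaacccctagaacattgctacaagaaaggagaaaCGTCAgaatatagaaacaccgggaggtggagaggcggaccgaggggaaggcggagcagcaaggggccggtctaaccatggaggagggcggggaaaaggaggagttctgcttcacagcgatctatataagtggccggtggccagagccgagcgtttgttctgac
Pgam1, chr1:250672902-250673151, plus strand: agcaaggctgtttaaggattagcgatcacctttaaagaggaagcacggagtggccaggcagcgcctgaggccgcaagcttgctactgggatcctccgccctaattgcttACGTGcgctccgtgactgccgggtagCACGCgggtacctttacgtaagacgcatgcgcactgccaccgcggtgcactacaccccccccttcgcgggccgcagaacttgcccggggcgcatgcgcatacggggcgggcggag
Pdk1, chr3:77113264-77113513, plus strand: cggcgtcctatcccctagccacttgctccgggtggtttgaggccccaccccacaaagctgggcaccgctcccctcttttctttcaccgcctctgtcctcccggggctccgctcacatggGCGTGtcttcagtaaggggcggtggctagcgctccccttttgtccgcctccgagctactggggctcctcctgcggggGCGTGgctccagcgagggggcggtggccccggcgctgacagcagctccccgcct

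Ldha held the one full CRE among the 27 genes with a promoter entry, 51 to 44 bases before the start site. Over all 27457 rat promoter windows of that length, 1.70% held a full CRE on either strand. The element reads the same on both strands and contains a half-site on each. Half-sites stood in 8 of the 27 windows, against 19.0% of all promoters. Tpi1 had 1 of them, 163 to 159 bases before its start, while Hk1, Pfkfb2, Gapdh, Eno1 and Pdha1, which did not pass the test, and Slc16a7, which was not tested, also had one. The ACGTG core stood in 12 of the 27 windows, against 16.9% of all promoters, and the GCGTG core in 13, against 27.2%. Both were found in Ldha and Pgam1, and also in Slc2a1, Aldoc, Gapdh, Slc16a1 and Pdhb, which did not pass. An E-box, which contains an ACGTG core on each strand, was found in 5 windows, those of Pfkfb3, Ldha, Slc16a1, Pdk2 and Pdhb, against 5.79% of all. Pdk1, which fell, carried 2 GCGTG cores. These matches are letters in a window and were not tested as sites. Slc2a3, Pgk1 and Gpd1 had no promoter entry.

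**Figure D2:**
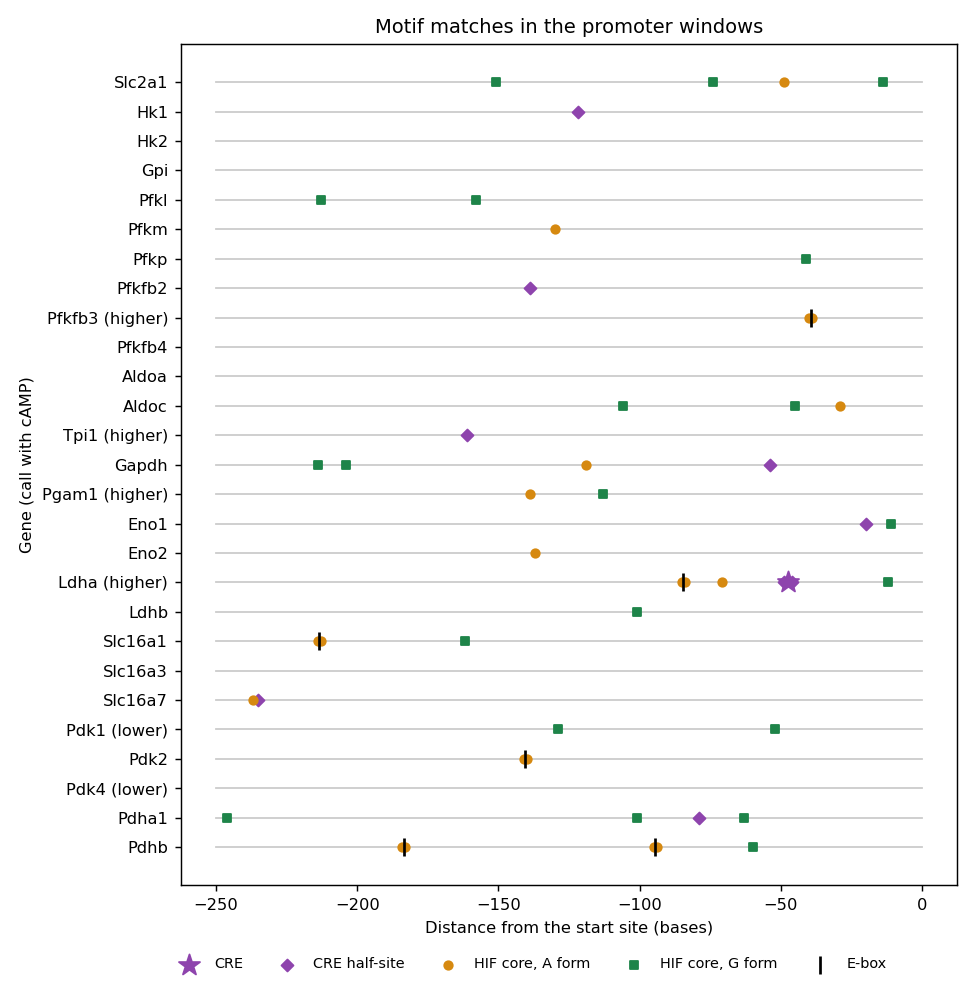
Positions of the motif matches in the 250 bases before the start site (x axis, in bases) of 27 genes in pathway order, with the call beside the name of each gene that passed the test. The full CRE (star) stands in Ldha alone, while HIF cores stand in genes that rose, fell and did not pass.

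Glucose enters through facilitative transporters. Slc2a1, which encodes GLUT1, the widespread basal transporter, had signals of 208.2 and 192.4 on the cAMP arrays and 164.7 and 102.1 on the control arrays. Both cAMP arrays lay above both controls, but the difference of 0.57 ± 0.23 (log2, standard error, n = 2 arrays per group here and below) did not pass limma's test (adjusted p = 0.154). Control replicate 2 decided its size: the log2 difference was 0.87 without control replicate 1, where it passed (adjusted p = 0.0103), and 0.26 without control replicate 2. Slc2a3, which encodes GLUT3, a transporter of high affinity, had 118.7 and 60 with cAMP and 90.5 and 87.7 in controls, so that the groups overlapped (-0.05 ± 0.28).

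The first enzymes of the pathway, from the hexokinases to phosphofructokinase, gave no call among 6 genes. Hk1, the hexokinase of most tissues, had 192.1 and 223.2 with cAMP and 254.4 and 194.3 in controls. Hk2, the inducible hexokinase, had 32.5 and 31.9 with cAMP and 17.8 and 10.5 in controls. Its groups did not overlap, but 1 control array lay below background and the difference of 0.69 ± 0.22 did not pass (adjusted p = 0.0903, and adjusted p = 0.0401 without control replicate 1). Gpi, which interconverts glucose and fructose phosphates, had 589.1 and 662.3 with cAMP and 690.5 and 425.0 in controls, with control replicate 2 the lowest of the 4. Its difference of 0.20 ± 0.22 became 0.54 without control replicate 1 (adjusted p = 0.0256) and -0.14 without control replicate 2, so 1 control array set its sign. The phosphofructokinase genes carry the committed step. Pfkm, the muscle form, had 91.5 and 109.2 with cAMP, above its 77.0 and 69.9 in controls (0.38 ± 0.19, adjusted p = 0.241), and its other tested probe set gave 0.55 ± 0.21. The liver form Pfkl (-0.07 ± 0.20) and the platelet form Pfkp (0.04 ± 0.21) overlapped between groups.

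The PFKFB enzymes make and break fructose 2,6-bisphosphate, the strongest activator of phosphofructokinase. Pfkfb3, whose product has mostly kinase activity and so favours glycolysis, had signals of 112.0 and 100.6 with cAMP and 44.7 and 63.9 in controls. All cAMP values lay above the controls, and the rise of 0.81 ± 0.21 passed narrowly (adjusted p = 0.0451). Its 2 other probe sets were too dim to test, and the call was lost when all 3 were averaged (0.27, adjusted p = 0.401). Pfkfb2, a form controlled by phosphorylation in heart, had 51.2 and 48.1 with cAMP and 66.5 and 77.5 in controls, below them on both arrays (-0.42 ± 0.19, adjusted p = 0.204). Pfkfb4 overlapped between groups, at 22.3 and 33.7 with cAMP and 24.6 and 19.8 in controls.

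At the split into triose phosphates, 1 of 3 genes rose. Tpi1 encodes the isomerase that converts dihydroxyacetone phosphate to glyceraldehyde 3-phosphate. It had signals of 936.6 and 1111.5 with cAMP and 465.9 and 313.9 in controls, a 2.63-fold ratio of means and the largest log2 difference among the 28 genes (1.38 ± 0.20, adjusted p = 0.00492). Both cAMP arrays lay above both controls, and the spread within each group was smaller than the gap between them. Aldoa, the main aldolase, differed little, with 3451.6 and 3453.8 with cAMP and 4123.1 and 3273.0 in controls (-0.09 ± 0.13). Aldoc, the brain aldolase, had 6.2 and 22.9 with cAMP and 33.8 and 42.3 in controls. Its cAMP arrays lay below both controls, 1 of them under background, and the difference of -0.87 ± 0.30 did not pass (adjusted p = 0.103).

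Gpd1 draws on the same triose phosphate: it reduces dihydroxyacetone phosphate to glycerol 3-phosphate, oxidising cytosolic NADH, and feeds both glycerolipid synthesis and the glycerol phosphate shuttle. Its signals were 766.7 and 747.7 with cAMP and 405.3 and 201.7 in controls, a 2.49-fold ratio of means (1.35 ± 0.28, adjusted p = 0.0209). The cAMP arrays agreed closely, while the control arrays differed from each other more than in any other tested gene of the set. The size ran between 0.88 without control replicate 2 and 1.83 without control replicate 1. The second probe set of Gpd1 also rose, with 140.7 and 127.9 with cAMP and 45.7 and 5.0 in controls (2.06 ± 0.45, adjusted p = 0.0243), the last value lying below background.

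In the later, energy-yielding steps of glycolysis 2 of 5 tested genes rose. Pgk1, whose enzyme makes the first ATP of the pathway, had signals of 993.6 and 946.9 with cAMP and 481.0 and 381.2 in controls, a 2.25-fold ratio of means (1.15 ± 0.15, adjusted p = 0.00342). A second probe set of Pgk1 rose by nearly the same amount, 1.19 ± 0.17 (adjusted p = 0.00488), and the third was at background on all arrays. Pgam1, the phosphoglycerate mutase of most tissues, had 3581.3 and 3337.4 with cAMP and 2652.1 and 2108.0 in controls (0.54 ± 0.14, adjusted p = 0.0419). Both cAMP arrays lay above both control arrays in each of these genes. Gapdh, which precedes Pgk1 in the pathway, had 3165.8 and 3011.6 with cAMP and 3955.6 and 3573.6 in controls, lower on both arrays (-0.28 ± 0.11, adjusted p = 0.145). It is read here from the array maker's own Gapdh control probe sets, all 3 of which gave a negative difference, between -0.28 and -0.36. Eno1, the enolase after Pgam1, had 1146.2 and 1235.7 with cAMP, between its control values of 1463.4 and 1013.7 (-0.03 ± 0.18). Eno2, the neuronal enolase, had 25.0 and 30.6 with cAMP, while both control arrays were at background (13.6 and 11.9). It was at least 1.95-fold higher with cAMP but did not pass (0.61 ± 0.21, adjusted p = 0.110). Several of these enzymes have near-identical processed pseudogenes in rodents, and a probe set may pick up such copies.

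The lactate dehydrogenase genes differed in opposite directions, and Ldha alone passed the test. Ldha encodes the subunit that favours reduction of pyruvate to lactate. Its signals were 2596.6 and 2424.1 with cAMP and 1886.3 and 1598.7 in controls, a 1.44-fold ratio of means (0.53 ± 0.13, adjusted p = 0.0355). Both cAMP arrays lay above both controls. Ldhb, whose subunit favours the reverse reaction, had 3141.4 and 3084.0 with cAMP and 4019.6 and 4066.9 in controls. The arrays of each group lay within a narrow range and the groups did not overlap, but the difference of -0.38 ± 0.10 just missed the threshold (adjusted p = 0.0526). It passed with quantile normalization and with a stricter filter. It did not pass limma's test with no filter (adjusted p = 0.141), without an intensity trend (0.183) or with the replicate number as a block (0.0707). With 1 array left out at a time, the log2 difference ran between -0.389 and -0.362, and it did not pass without either cAMP array.

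Lactate leaves the cell through monocarboxylate transporters. Slc16a1, which encodes MCT1, had 653.1 and 579.6 with cAMP and 578.6 and 570.9 in controls (0.10 ± 0.14, adjusted p = 0.693). Its cAMP arrays were above the controls, the lower one by less than the spread between the controls. Slc16a3, which encodes the exporter MCT4, was listed between 3.4 and 8.8 and Slc16a7, which encodes MCT2, between 0.9 and 8.1. All 4 arrays lay below the background signal of 14.2 for both genes, so no difference can be read from them. Basigin (Bsg), the membrane partner of MCT1, had 2058.9 and 1840.0 with cAMP and 1829.8 and 1542.3 in controls and did not pass (0.21 ± 0.13).

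At the pyruvate gate, 2 of the 3 kinase genes of the set fell, where 6.39% of all tested probe sets fell. Neither of the 2 tested genes of the complex passed. Pdk3, a kinase gene outside the set, was brighter than these 3 and did not pass (-0.02 ± 0.18). It had 348.1 and 350.6 with cAMP and 410.4 and 304.6 in controls. Each pyruvate dehydrogenase kinase phosphorylates the complex and so closes the gate. Pdk4, the form induced by fasting and by fatty acids, had 6.6 and 11 with cAMP, both at background, and 34.2 and 46.7 in controls. It was at least 2.81-fold lower (-1.18 ± 0.23, adjusted p = 0.0160), from low signals in both groups. Pdk1, a known HIF target, had 41.8 and 44.8 with cAMP and 86.0 and 80.3 in controls (-0.74 ± 0.19, adjusted p = 0.0414). Its second tested probe set did not pass, with 30.9 and 38.5 with cAMP and 34.1 and 47.1 in controls (-0.15 ± 0.22), and the mean of the 2 did not either (adjusted p = 0.154). Pdk2, the most widespread form, had 61.0 and 52.6 with cAMP and 111.9 and 89.6 in controls, below them on both arrays, and missed the threshold (-0.68 ± 0.20, adjusted p = 0.0664). Its second tested probe set overlapped between groups, with 12.1 and 26 with cAMP and 35 and 20.2 in controls (-0.32 ± 0.28). Pdha1, the catalytic alpha subunit of the complex, had 288.2 and 311.7 with cAMP and 399.5 and 322.5 in controls (-0.25 ± 0.16). Its second tested probe set had the opposite sign (0.09 ± 0.24), and neither passed. Pdhb, the beta subunit, had 966.5 and 883.9 with cAMP and 921.0 and 865.8 in controls (0.05 ± 0.13).

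**Figure D3:**
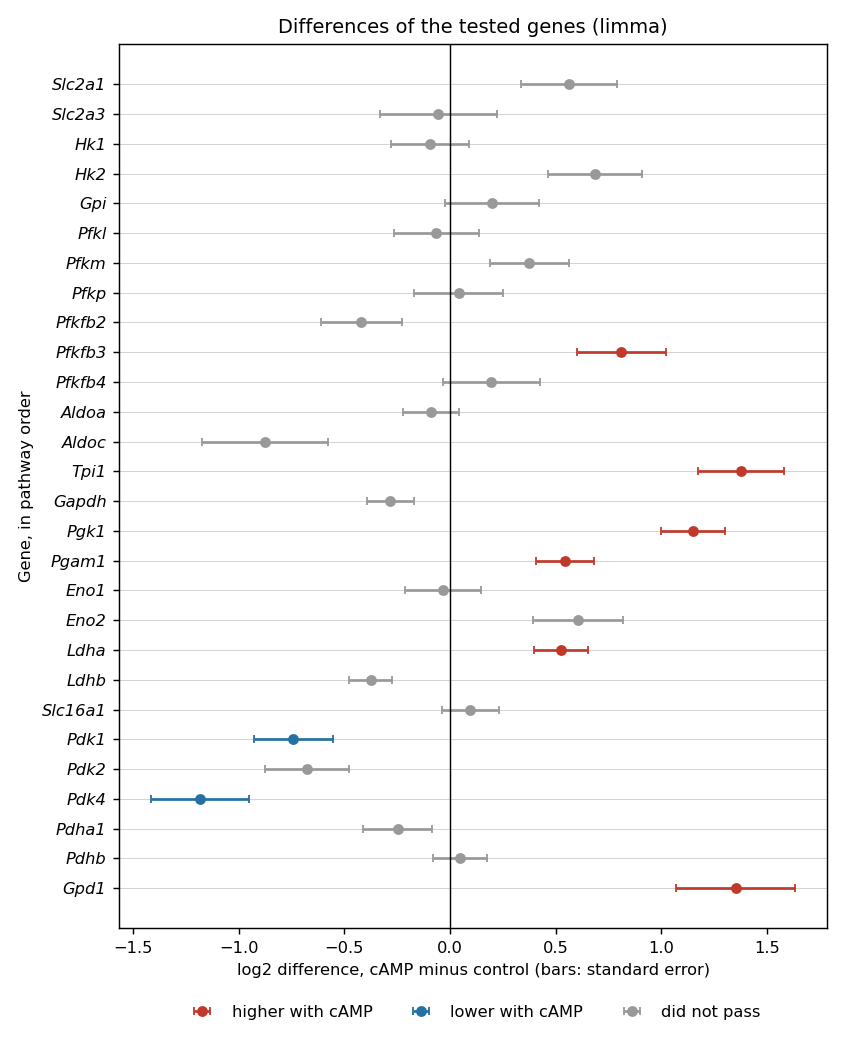
Log2 difference (x axis, cAMP minus control) with its standard error for the 28 tested genes in pathway order, from limma on 2 arrays per group; colour marks whether a gene passed an adjusted p of 0.05. Tpi1, Pgk1 and Gpd1 lie beyond 1, Pdk4 lies beyond -1, and genes next to each other in the pathway differ in sign and size.

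Fewer calls passed with 1 cAMP array left out. The within-group spread then comes from the 2 control arrays alone, so a lost call does not show that the cAMP arrays differ. For Pgam1 the log2 difference was 0.494 without cAMP replicate 1 and 0.596 without cAMP replicate 2, against 0.545 with all arrays. Its standard error was 0.22 in both cases, against 0.138. For Pdk4 the differences were -1.055 and -1.312, against -1.183. Without cAMP replicate 1, Tpi1 alone still passed (adjusted p = 0.0393, with Pgk1 at 0.0595), and without cAMP replicate 2, Pgk1 alone did (adjusted p = 0.0447, with Tpi1 at 0.0623). The other 6 calls were lost in both cases, with adjusted p between 0.0786 for Pdk4 and 0.329 for Pgam1. Over all tested probe sets the calls then fell to 408 higher and 305 lower without replicate 1 and 427 and 346 without replicate 2, against 1358 and 1191 with all arrays. Pfkfb3 was also lost without control replicate 1 (adjusted p = 0.0607), Pdk4 without control replicate 2 (adjusted p = 0.0544), and Pdk1 without either control array (0.0534 without replicate 1 and 0.0536 without replicate 2). No sign changed among the 8 genes. An exact permutation test of 2 against 2 arrays cannot give a two-sided p below 0.333 and was not used for single genes.

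**Figure D4:**
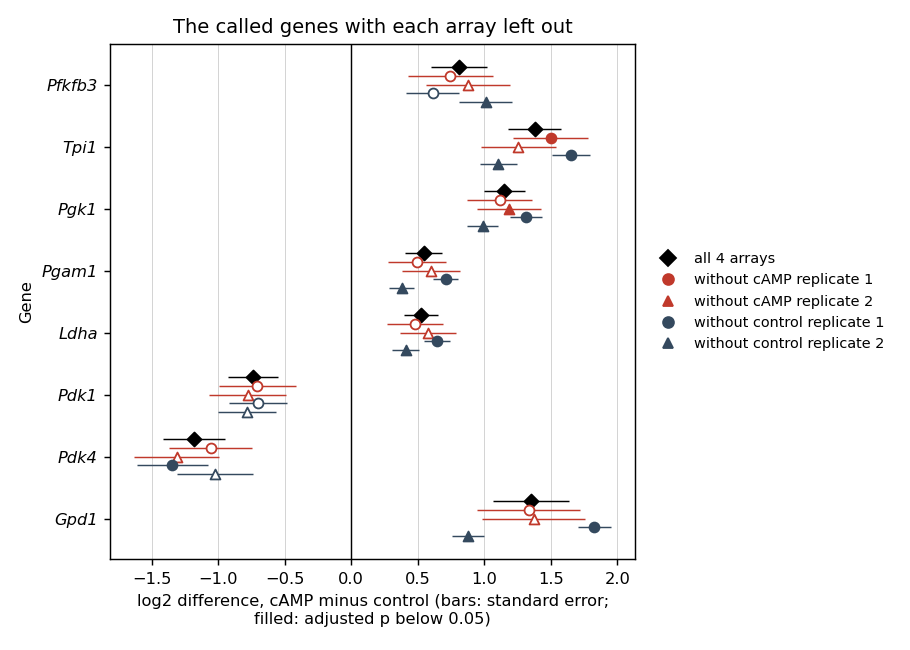
Log2 difference (x axis, cAMP minus control) with its standard error for the 8 genes that passed, with all 4 arrays and with each array left out in turn; filled symbols passed an adjusted p of 0.05. Signs stay the same in every row, and Tpi1 and Pgk1 each stay filled in 4 of the 5 settings.

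Around these genes, 111 further ones were listed: other transporters and isoenzymes of glycolysis, other genes of the pyruvate gate, gluconeogenesis and glycogen, the pentose phosphate branch, shuttles that carry NADH electrons into the mitochondrion, and transcription regulators. Of these, 98 had a probe set and 77 were tested, of which 9 rose, 5 fell and 63 did not pass, 18.2% against the 13.7% of all probe sets. None of 12 other genes of the pyruvate gate passed limma's test at an adjusted p of 0.05, including the pyruvate carrier genes Mpc1 (-0.15 ± 0.19) and Mpc2 (-0.28 ± 0.13), the kinase gene Pdk3 (-0.02 ± 0.18) and the phosphatase genes Pdp1 (0.01 ± 0.23) and Pdp2 (0.58 ± 0.20, unadjusted p = 0.0229). Pdp2 was the 1 gene of the 12 with an unadjusted p under 0.05. None of 7 pentose phosphate genes passed limma's test either, and Taldo1 was the 1 gene of these with an unadjusted p under 0.05 (-0.79 ± 0.26, adjusted p = 0.0951).

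Of 10 genes listed with the NADH shuttles 3 rose and none fell, where 7.29% of all tested probe sets rose and 6.39% fell. The list also holds the malic enzyme genes Me1 and Me2, which are not parts of the shuttles themselves. Mdh1, the cytosolic malate dehydrogenase, had 2334.2 and 2461.0 with cAMP and 1580.6 and 1754.4 in controls (0.52 ± 0.12, adjusted p = 0.0277). Got1, the cytosolic aspartate transaminase of the malate-aspartate shuttle, had 312.0 and 403.4 with cAMP and 224.8 and 198.5 in controls (0.71 ± 0.18, adjusted p = 0.0406). Me2, a mitochondrial malic enzyme that forms pyruvate from malate, rose by 0.77 ± 0.14 (adjusted p = 0.0122), but did not pass when its 2 probe sets were averaged (0.56, adjusted p = 0.0543). The mitochondrial partner gene Got2 had 795.0 and 863.3 with cAMP and 619.8 and 351.1 in controls and did not pass (0.81 ± 0.25, adjusted p = 0.0746). Gpd2, the mitochondrial partner of Gpd1, had 73.9 and 86.1 with cAMP and 76.0 and 96.2 in controls and did not pass (-0.08 ± 0.20). The 3 calls were lost without either cAMP array, and Got1 also without control replicate 2. Mdh1 and Got1 were lost as well by limma without an intensity trend (adjusted p = 0.0976 and 0.0674) and with no filter on dim probe sets (0.0734 and 0.0805).

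Gluconeogenesis and glycogen genes gave 1 higher and 1 lower call among 19, or 10.5%, against 13.7% of all tested probe sets. Pck1, the cytosolic enzyme that makes phosphoenolpyruvate and a classical cAMP-induced gene in liver, had 47.2 and 46.5 with cAMP and was at background in both controls (8.4 and 13.8), at least 3.30-fold higher (1.22 ± 0.22, adjusted p = 0.0106). Pygb, the brain glycogen phosphorylase, had 242.2 and 273.0 with cAMP and 501.1 and 402.2 in controls (-0.77 ± 0.17, adjusted p = 0.0238). Among 12 other transporters and isoenzymes, Bpgm, which makes 2,3-bisphosphoglycerate, rose (0.57 ± 0.15, adjusted p = 0.0463) and the transporter gene Slc16a6 fell (-0.86 ± 0.20, adjusted p = 0.0323). The fructose transporter gene Slc2a5 (0.89 ± 0.24, adjusted p = 0.0527) and Emb, which encodes embigin, a partner of monocarboxylate transporters (0.42 ± 0.14, adjusted p = 0.0964), did not pass. All 4 calls were lost without either cAMP array (adjusted p between 0.0923 and 0.365), and Slc16a6 also without control replicate 1 (adjusted p = 0.0552). Bpgm was lost in 7 of its alternatives, among them a pseudocount of 1 (adjusted p = 0.0502), quantile normalization (0.0509), no intensity trend (0.0838) and the mean of its probe sets (0.0884).

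Among 17 tested transcription regulators 4 rose and 3 fell, where 7.29% of all tested probe sets rose and 6.39% fell. The HIF subunit genes Hif1a (0.48 ± 0.12, adjusted p = 0.0414) and Epas1 (1.22 ± 0.13, adjusted p = 0.00110), the cAMP-responsive factor gene Crem (1.68 ± 0.24) and Klf4 (1.40 ± 0.14, adjusted p = 0.00109) rose. Egln1, which encodes the main prolyl hydroxylase that marks HIF subunits for breakdown, had 212.2 and 197.2 with cAMP and 1012.7 and 808.6 in controls (-2.06 ± 0.16, adjusted p = 0.000362). The mean of its 2 probe sets, an average of log2 values, gave a smaller difference (-1.04, limma, adjusted p = 0.00767). The second probe set thus differed far less between groups than the first. Other results given here for Egln1 come from the first probe set alone. Txnip, whose product restrains glucose uptake, had 793.3 and 1237.7 with cAMP and 1633.5 and 1897.7 in controls (-0.82 ± 0.21, adjusted p = 0.0431). The orphan receptor gene Esrrg, a regulator of oxidative metabolism, had 21.8 and 13.5 with cAMP and 86.6 and 101.2 in controls (-1.72 ± 0.22, adjusted p = 0.00282), with 1 cAMP array at background. Epas1, Klf4, Egln1 and Esrrg passed with any 1 array left out. Txnip was lost without cAMP replicate 1 and without control replicate 2, Crem without cAMP replicate 1, and Hif1a without either cAMP array. Txnip and Hif1a were also lost by limma without an intensity trend (adjusted p = 0.0865 and 0.113) and with no filter on dim probe sets (0.112 and 0.0796).

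**Figure D5:**
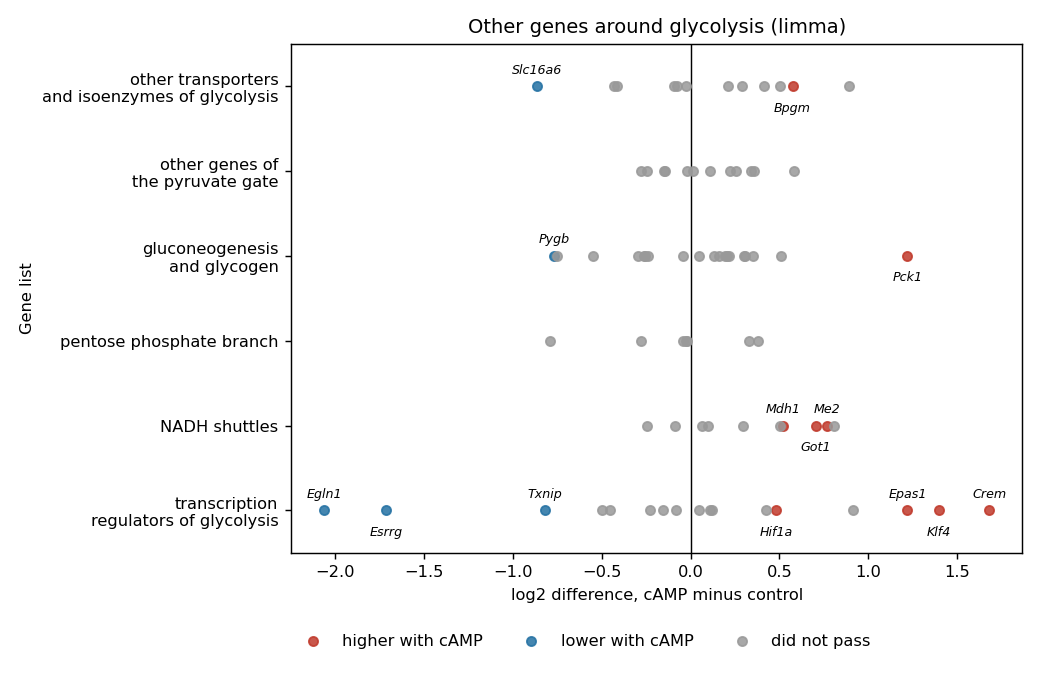
Log2 difference (x axis, cAMP minus control) of the 77 tested genes in 6 lists around glycolysis, a point per gene, with the genes that passed an adjusted p of 0.05 named. The NADH shuttle list, which includes malic enzyme genes, holds 3 higher calls among 10 genes. The transcription regulators hold 4 higher and 3 lower among 17, and the pyruvate gate and pentose phosphate lists none.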

How the data were processed

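The authors deposited 1 linear intensity per probe set and array; GCOS and MAS5 are the tools that the submitters' processing notes name, with neither version nor settings stated there. Each array had a mean of 125 after trimming 2% at either end. From these intensities log2(signal + 16) was computed, without further normalization; such log2 differences understate the change of dim genes. The 32 genes were matched by platform symbol, and the other lists by the RefSeq symbol of the annotated gene ID (20764 of 20832 single-symbol probe sets matched). Of 31099 probe sets, 57 are controls; 6 of these carry the symbol Gapdh or Hk1 and were kept. Probe sets with a mean log2 value of at least 5.10, the 40th percentile, went into limma's moderated test (limma 3.58.1, R 4.3.3, intensity trend, two-sided, Benjamini-Hochberg over all 18629). Background was the highest of 27 Bacillus control probe sets, 14.2. Where a whole group lay at or below it, folds are lower bounds from geometric means, with each value raised to that background. The fit was tested on simulated data. The number of arrays limits the precision. All 32 genes are accounted for, 30 with values. From other pathway lists, genes that passed and up to 3 with the smallest p that did not were named, and from marker lists those that passed and defining markers at background. Mpc1, Pdk3, Pdp1, Gpd2, Bsg, Clu, Cldn11, Rhox5, Gdnf, Sycp3, Sycp1, Acta2, Tek, Hsd11b1, Hsd17b3, Cd68, Mrc1, Ldhc, Gapdhs and Pdha2 were chosen after their values were seen. The genes and lists were chosen with earlier results of these data known. Alternatives were other pseudocounts, filters and normalizations, each array left out, the replicate number as a block, no intensity trend and the mean of a gene's probe sets.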

Additional observations from a re-analysis of the deposited data

How the results depend on the processing

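With 2 arrays per group, the counts of calls fell most when a cAMP array was left out. Leaving out 1 array at a time gave between 1 and 8 higher and between 0 and 3 lower calls among the 28 genes, and between 2 and 17 higher and between 2 and 7 lower among the other pathway genes, against 6, 2, 9 and 5 with all arrays; the median log2 difference of the 28 genes ran between -0.108 and 0.167. Over all probe sets, 2419 were higher and 2371 lower without control replicate 1. With no filter on dim probe sets, 2 of the 30 genes were higher and 0 lower (Tpi1 and Pgk1 passed), with 5 higher and 2 lower among the other pathway genes and 873 and 725 over all probe sets. A filter at the 60th percentile left 3 lower calls among the other pathway genes, and limma without an intensity trend 5 higher ones; without the trend 4 genes of the set were higher, Ldha (adjusted p = 0.108) and Pgam1 (adjusted p = 0.116) being lost. The mean of all probe sets of a gene gave 5 higher and 0 lower calls among the 26 genes of the set then tested. Pdk4 and Pfkfb4 fell below the filter in that setting and were not tested. The second probe set of Pdk4 was at background on all arrays, with 9.2 and 9 with cAMP and 11.8 and 10.2 in controls. Replicate numbers are shared between groups, but the labels do not say that a number marks a shared batch; deviations of cAMP replicate 1 and control replicate 1 correlated at r = 0.163 over 18629 probe sets. With the replicate number as a block, 6 genes were higher and 4 lower, Aldoc and Pdk2 being added (adjusted p = 0.0422 for each). Among the other genes the block lost Hif1a (adjusted p = 0.0501) and added Slc2a5 (0.0163), Taldo1 (0.00922), Got2 (0.0405) and Foxo1 (0.0473). Pseudocounts of 1 and 64, quantile normalization and median centring kept each of these counts within 1.5 times. Of 1335 gene results under alternatives, none changed sign while past the threshold, 66 lost it and 31 gained it. The cause of these shifts was not tested. Genes near the background signal of 14.2, such as Pdk4, Eno2 and Hk2, have sizes that depend on the pseudocount: Pdk4 fell by 2.10 with a pseudocount of 1 and by 0.519 with 64.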

Other observations

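Testis-specific isoenzymes of the same pathway are expressed in germ cells and were read beside the germ cell markers. Ldhc, the lactate dehydrogenase of spermatocytes, had signals of 659.7 and 427.4 with cAMP and 811.6 and 627.2 in controls (log2 difference -0.41 ± 0.22, adjusted p = 0.281 by limma). Gapdhs, the sperm form of glyceraldehyde phosphate dehydrogenase, had 19.8 and 21.5 with cAMP and 37.3 and 29.6 in controls (-0.43 ± 0.21, adjusted p = 0.234). Pdha2, the testis form of the alpha subunit of pyruvate dehydrogenase, had 130.3 and 85.5 with cAMP and 138.1 and 119.4 in controls (-0.25 ± 0.22, adjusted p = 0.523). None of the 3 passed. Of the meiotic markers, Sycp3 had 2257.7 and 1753.6 with cAMP and 2339.6 and 2298.0 in controls (-0.22 ± 0.14), and Sycp1 had the opposite sign, with 105.7 and 104 with cAMP and 101 and 72.6 in controls (0.25 ± 0.20); neither passed.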
